A study of Mus musculus with 8 samples.

Results

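Nuclear factors that set up or stabilise the choice of olfactory receptor gene were followed through the polysomes of the mouse main olfactory epithelium: Lhx2, Ldb1, Emx2, Ebf1, Ebf2, Ebf3, Ebf4, Kdm1a and Lbr. These 9 genes were taken by symbol from the 21765 genes of the deposited table, and all 9 passed the filter on low values. Polysome-bound RNA was sequenced from early polysomes (gradient fractions 27 to 34, lighter) and late polysomes (fractions 35 to 42, heavier), after the tissue had been treated with 100 µg/mL cycloheximide, which holds ribosomes on mRNA. Wild-type (WT) mice were Mex3a flox/flox or Mex3a flox/+ without Cre. Conditional knockout (cKO) mice were Mex3a flox/flox with Cre. Mex3a encodes an RNA-binding protein. There were 4 groups (early and late polysomes of WT, and early and late polysomes of cKO) of 2 libraries, and the library names show that an early and a late library with the same genotype and number came from a shared lysate. Ages and the number of animals behind each lysate are not given in the sources used here, and nothing states that replicates came from separate animals, so p-values measure the spread between these samples.

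An olfactory sensory neuron expresses a single receptor gene from a large family whose other members stay silent in heterochromatin. The LIM-homeodomain protein Lhx2 and the Ebf (early B-cell factor) proteins bind the enhancers and many promoters of receptor genes, and Ldb1, an adaptor without DNA binding of its own, bridges Lhx2-bound enhancers from different chromosomes. Emx2 is a homeodomain factor linked to receptor promoters. Kdm1a (Lsd1) is a histone demethylase needed to start receptor expression, and Lbr, the lamin B receptor, ties heterochromatin to the nuclear envelope and is lost as olfactory neurons gather their silent receptor genes in the nuclear centre.

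Mex3a itself was at 97.9 and 118 TPM (a transcript abundance per length that sums to 1000000 in each library, scaled between libraries) in the WT early libraries, 14.4 and 21.1 in cKO early, 88.1 and 89.2 in WT late, and 10.9 and 13.1 in cKO late libraries. All 4 cKO libraries were below all 4 WT libraries (log2 change -2.55 in early, SE 0.18, limma adjusted p = 0.00457, and -2.79 in late, SE 0.18, adjusted p = 0.00282). With so few libraries these calls were lost, at adjusted p of 0.0501 to 0.0945, when a WT library of the fraction compared was left out, with log2 changes from -2.80 to -2.42. For WT early replicate 2 the genotype tag is that of cKO, whereas its title and library name say WT. It was analysed as WT, and its 118 TPM of Mex3a was the highest level of the 8 libraries. Depth inferred from the steps of TPM was 7776792 to 12771079 reads per library, with 440 to 12133 reads behind each member's value. Mature neuron markers (8 genes) summed to 10000 to 12370 TPM in early and 6245 to 7544 in late libraries. Abundant genes carried that sum (Omp went from 4649 to 2601 TPM, Stoml3 from 3388 to 2001 and Gng13 from 1780 to 545), while the other 5 of the 8 genes were higher in late polysomes, with a median log2 change of 0.34 over the 8. Sustentacular markers (8 genes, all higher in late) summed to 2044 to 2779 in early and 6363 to 7378 in late libraries. Stroma and endothelium markers (6 genes) summed to 7858 to 13200 in early and 12870 to 17310 in late libraries. Col1a1 (mean 7007 TPM in early, 9910 in late) and Col1a2 (3484 and 5197) carried most of that sum. Gland markers (9 genes, 7 called higher in late and 1 lower) summed to 10070 to 15770 in early and 16180 to 25300 in late libraries. Immature neuron markers (9 genes, 5 called higher and 3 lower) summed to 3649 to 3869 in early and 3040 to 3661 in late libraries. Progenitor markers (8 genes, 5 called higher and 0 lower) summed to 357 to 396 in early and 459.5 to 490 in late libraries. Forebrain markers (8 genes) summed to 39.5 to 55.3 in all libraries, and no marker was at 0 in every library.

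The sequence around the annotated start codon of each member is shown because the libraries sort mRNAs by the ribosomes they carry, and the start codon is where ribosomes begin. Each line gives 10 bases before the start codon, the start codon in capitals and 7 bases after it, from the transcript with the longest coding sequence of the gene (GENCODE vM21, GRCm38).
Lhx2: tcccgccgcgATGctgttcc
Ldb1: cgatgtgaagATGtcagtgg
Emx2: tcggcgcagcATGtttcagc
Ebf1: ggttgttttcATGtttggga
Ebf2: gactttttaaATGtttggga
Ebf3: agcagtgttcATGtttggga
Ebf4: cggcggcgggATGgccaggg
Kdm1a: gcggcccgagATGttgtctg
Lbr: attttagaaaATGccaagta

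Ebf1, Ebf2 and Ebf3 open with the same bases from the start codon to the end of the lines shown, and Ebf4 does not. A purine at position -3 (counted back from the A of the start codon) was present in 6 of 9 members and a G at position +4 in 1 of 9 (Ebf4). Over all genes with an annotated leader of at least 10 bases, 84.0% held the purine, 49.3% the G and 41.0% both. Ebf1, Ebf2 and Ebf3 are the 3 members without the purine. These letters describe the annotation and were not tested against the data. Ebf4 has 3 annotated coding lengths, the shortest 1710 nt, and Ebf3 has 4, the shortest 1035 nt. Among the members only Ebf2, Emx2 and Lbr have a single one. The letters, and the coding lengths and leaders used below, thus rest on the longest, and other isoforms were not examined.

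All 9 regulators differed between late and early polysomes when the genotypes were averaged, 5 higher and 4 lower in late polysomes. Kdm1a, Ebf2, Lbr, Ebf3 and Ebf4 were higher in late polysomes, and Lhx2, Emx2, Ebf1 and Ldb1 were lower. Passing was common: of the 16097 genes tested, 68.9% passed in this comparison (34.3% higher and 34.6% lower in late), so the count of members says little about them as a set, and the direction and size for each gene carry the description. Without WT early replicate 2 every member kept its direction, from -0.75 for Lhx2 to 0.87 for Kdm1a. Ebf1 alone missed the threshold in that fit, where fewer of all genes passed as well. The median log2 change was 0.31 over the 9 members and -0.01 over all genes tested. The scaling between libraries holds the median gene near 0, so higher and lower are relative to other genes and not amounts of mRNA. Of the genes passing, 49.8% were higher in late polysomes here and 56.2% with TPM as deposited. Changes are late minus early on log2(scaled TPM + 1), and tests are limma moderated tests with Benjamini-Hochberg adjustment over all genes tested, at a threshold of 0.05.

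**Figure D1:**
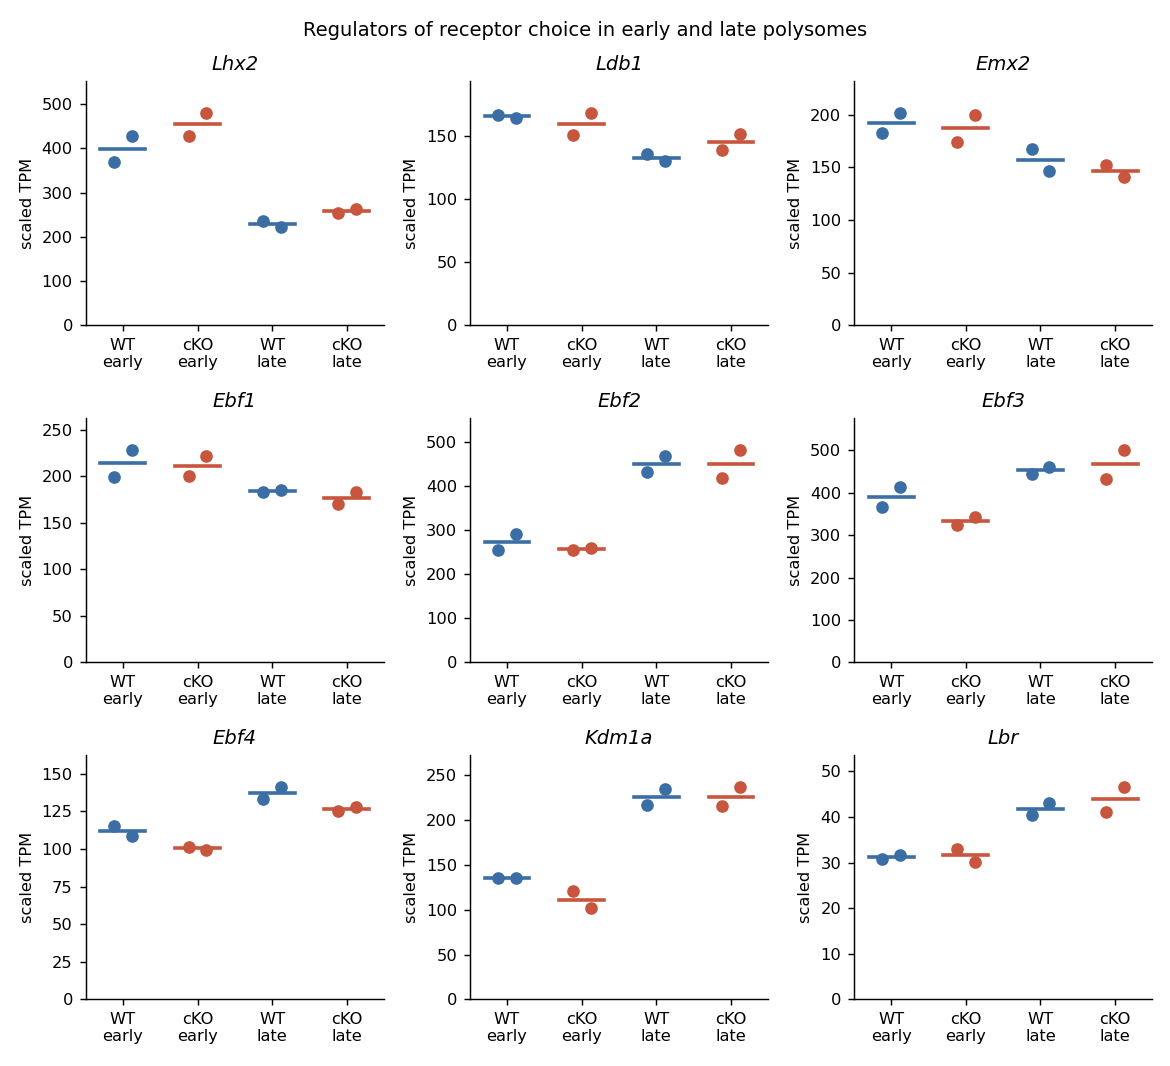
Scaled TPM (vertical axes, from 0, one scale per gene) of the 9 regulators in each of the 8 libraries, with WT in blue and cKO in red; points are libraries and bars are means of 2 libraries. Lhx2 lies between 221 and 263 in late and between 369 and 480 in early libraries, while Ebf2 and Kdm1a are higher in every late library than in any early library.

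Lhx2 (chromosome 2, 38339281 to 38369733, plus strand, start codon at chr2:38351774-38351776 in exon 1) was at 369 and 427 TPM in the WT early libraries, 428 and 480 in cKO early, 236 and 221 in WT late, and 253 and 263 in cKO late libraries. All 4 late libraries were below all 4 early libraries. Lhx2 fell by 0.80 on the log2 scale (SE 0.080, adjusted p = 5.4e-05, lower in 4 of 4 lysates), the largest decrease among the 9 regulators. The change was -0.80 within WT (SE 0.11, adjusted p = 0.000867) and -0.81 within cKO (SE 0.11, adjusted p = 0.000591). Quantile normalization gave a smaller decrease (-0.53, adjusted p = 0.000285).

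Ldb1 (chromosome 19, 46031570 to 46045214, minus strand, start codon at chr19:46044852-46044854 in exon 1), the partner that Lhx2 recruits, moved less. It was at 167 and 164 TPM in the WT early libraries, 151 and 168 in cKO early, 135 and 130 in WT late, and 139 and 151 in cKO late libraries. The highest late library, of cKO, stood above the lowest early library, also of cKO, so Ldb1 was the only member whose fractions overlapped; 62.5% of all genes tested had fractions that did not overlap. Ldb1 fell by 0.22 (SE 0.068, adjusted p = 0.0173, lower in 4 of 4 lysates). This call was lost with TPM as deposited (-0.11, adjusted p = 0.205), with quantile normalization (-0.12, adjusted p = 0.165), and without WT late replicate 2 (-0.21, adjusted p = 0.0601) or cKO early replicate 2 (-0.19, adjusted p = 0.0571). Per Ldb1 transcript, Lhx2 was at 2.63 ± 0.30 (SD, n = 4) in early and 1.75 ± 0.053 (SD, n = 4) in late libraries. The SDs span both genotypes, with 2.21 to 2.61 in WT early and 2.84 to 2.86 in cKO early libraries, a gap that was not tested.

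Emx2 (chromosome 19, 59458372 to 59465357, plus strand, start codon at chr19:59459216-59459218 in exon 1) was at 182 and 202 TPM in the WT early libraries, 174 and 200 in cKO early, 168 and 146 in WT late, and 152 and 141 in cKO late libraries. No late library reached an early one. Emx2 fell by 0.32 (SE 0.082, adjusted p = 0.00798, lower in 4 of 4 lysates). Its decrease was -0.12 and -0.20 in the WT and cKO lysates of replicate 1 and -0.46 and -0.50 in those of replicate 2. This was not particular to Emx2. Lhx2, Ldb1, Ebf1, Ebf4, Kdm1a and Lbr also changed more in replicate 2 of both genotypes, and Ebf2 and Ebf3 did so in cKO only. The summed stroma and endothelium markers, mostly Col1a1 and Col1a2, differed between the replicate numbers too. They were at 13110 and 13200 TPM in the early libraries of replicate 1 and 7858 and 8912 in those of replicate 2. The summed gland markers were at 15770 (WT) and 15100 TPM (cKO) in the early libraries of replicate 1. In those of replicate 2 they were at 10070 and 12210. The part of either list in the result was not tested. With TPM as deposited the decrease was -0.20 (adjusted p = 0.0430).

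The Ebf paralogues did not move together. Ebf1 (chromosome 11, 44617317 to 45008091, plus strand, start codon at chr11:44618179-44618181 in exon 1) was at 199 and 228 TPM in the WT early libraries, 200.0 and 221 in cKO early, 183 and 185 in WT late, and 170.1 and 183 in cKO late libraries. Each late library was lower than each early library. Ebf1 fell by 0.23 (SE 0.075, adjusted p = 0.0219, lower in 4 of 4 lysates). The call was lost with TPM as deposited (-0.12, adjusted p = 0.201) and with quantile normalization (-0.10, adjusted p = 0.255). It was also lost without WT early replicate 2, the library with the conflicting tag (-0.18, adjusted p = 0.0814), and without WT late replicate 1 (-0.23, adjusted p = 0.0630), WT late replicate 2 (-0.24, adjusted p = 0.0557), cKO early replicate 2 (-0.20, adjusted p = 0.0700) or cKO late replicate 1 (-0.21, adjusted p = 0.0598).

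Ebf2 (chromosome 14, 67233292 to 67430918, plus strand, start codon at chr14:67235135-67235137 in exon 2) went the other way. It was at 255 and 292 TPM in the WT early libraries, 256 and 260 in cKO early, 433 and 469 in WT late, and 419 and 482 in cKO late libraries. The lowest late library was well above the highest early library. Ebf2 rose by 0.76 (SE 0.083, adjusted p = 7.7e-05, higher in 4 of 4 lysates), and it passed within WT (0.72, adjusted p = 0.00138) and within cKO (0.80, adjusted p = 0.000692).

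Ebf3 (chromosome 7, 137193673 to 137314445, minus strand, start codon at chr7:137313911-137313913 in exon 1) was at 366 and 414 TPM in the WT early libraries, 324 and 343 in cKO early, 444 and 461 in WT late, and 433 and 501 in cKO late libraries. It rose by 0.35 (SE 0.083, adjusted p = 0.00526, higher in 4 of 4 lysates), and the fractions did not overlap. Quantile normalization gave a larger increase (0.65, adjusted p = 0.000147). Ebf4 (chromosome 2, 130295169 to 130370481, plus strand, start codon at chr2:130295264-130295266 in exon 1), the least abundant paralogue, was at 115 and 108 TPM in the WT early libraries, 101 and 99.5 in cKO early, 133 and 141 in WT late, and 125 and 128 in cKO late libraries. Ebf4 rose by 0.31 (SE 0.062, adjusted p = 0.00203, higher in 4 of 4 lysates), again with no overlap between fractions.

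The 4 paralogues together summed to 946 ± 68.6 TPM (SD, n = 4) in early and 1222 ± 64.8 (SD, n = 4) in late libraries. Ebf1 made up 22.5% ± 1.16 (SD, n = 4) of that sum in early and 14.8% ± 0.484 (SD, n = 4) in late libraries. The share of Ebf2 was 28.1% ± 0.723 (SD, n = 4) in early and 36.9% ± 0.523 (SD, n = 4) in late libraries. The shares of Ebf3 (38.2% early, 37.6% late) and Ebf4 (11.2% early, 10.8% late) overlapped between fractions. For each Lhx2 transcript there were 2.24 ± 0.295 Ebf transcripts (SD, n = 4) in early and 5.05 ± 0.478 (SD, n = 4) in late libraries. The SDs in this paragraph span both genotypes. The ratio to Lhx2 was 2.44 to 2.54 in WT early and 1.92 to 2.06 in cKO early libraries. It was 5.06 to 5.68 in WT late and 4.53 to 4.92 in cKO late libraries, and the genotypes were not tested for it. A single scaling factor per library cancels in these shares and ratios, but quantile normalization, which alters values within a library, does not.

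Differences between the changes of relatives were compared by lysate over 7 pairs (6 among the Ebf genes, and Ldb1 with Lhx2). The change of Ebf2 exceeded that of Ebf1 by 0.99 ± 0.12 on the log2 scale (SD, n = 4 lysates), and Ebf3 and Ebf4 exceeded Ebf1 by 0.58 ± 0.19 and 0.54 ± 0.15. The difference was positive in 4 of 4 lysates for each of these, as it was for Ebf2 over Ebf3 (0.41 ± 0.11), Ebf2 over Ebf4 (0.45 ± 0.12) and Ldb1 over Lhx2 (0.58 ± 0.16). With 4 lysates, the two-sided exact sign-flip permutation test cannot give a p below 0.125, the value these 6 pairs reached (0.146 after Benjamini-Hochberg adjustment over the 7 pairs). Ebf3 and Ebf4 differed by 0.04 ± 0.18 (3 of 4 lysates, exact permutation p = 0.75, adjusted 0.75), with lysate differences from -0.22 to 0.19. With quantile normalization the 7 differences kept their sign, and that of Ebf3 over Ebf4 became 0.27, Ebf3 over Ebf1 0.75 and Ldb1 over Lhx2 0.42.

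**Figure D2:**
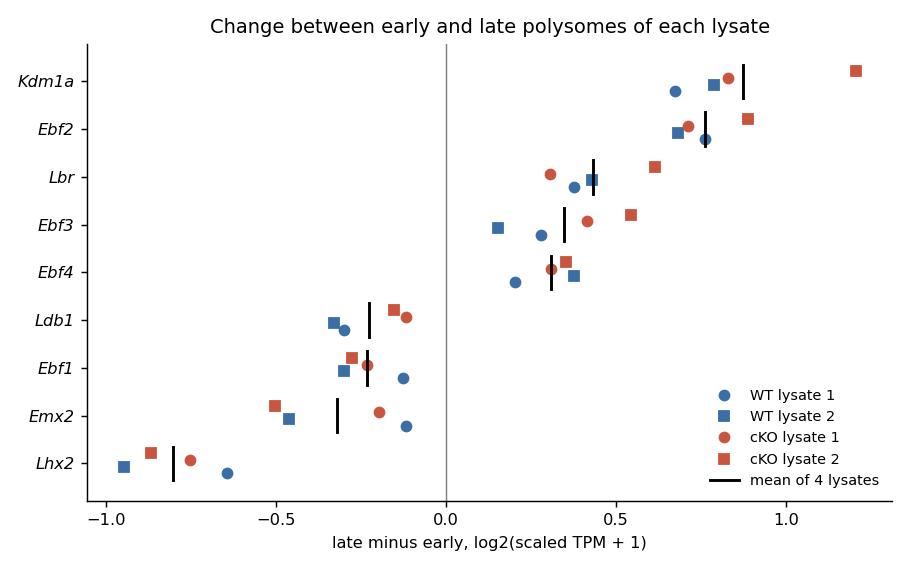
Late minus early difference on log2(scaled TPM + 1) (horizontal axis) for each of the 4 lysates, with circles for replicate 1, squares for replicate 2, WT in blue, cKO in red and a black bar for the mean. All 4 lysates lie on one side of 0 for each gene, from a mean of -0.80 for Lhx2 to 0.88 for Kdm1a.

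Kdm1a (chromosome 4, 136550540 to 136602723, minus strand, start codon at chr4:136602583-136602585 in exon 1) showed the largest increase of the 9 regulators. It was at 135.4 and 135.2 TPM in the WT early libraries, 121 and 102 in cKO early, 217 and 235 in WT late, and 216 and 237 in cKO late libraries. Late libraries were all above early libraries. Kdm1a rose by 0.88 (SE 0.078, adjusted p = 3.4e-05, higher in 4 of 4 lysates), by 0.73 within WT (adjusted p = 0.00106) and by 1.02 within cKO (adjusted p = 0.000261). Within WT the rise of Ebf2 was close (0.72), and in WT lysate 1 it was larger (0.76 against 0.67 for Kdm1a). With quantile normalization both genes rose by 1.01 on the mean of genotypes.

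Lbr (chromosome 1, 181815335 to 181843046, minus strand, start codon at chr1:181838540-181838542 in exon 2) was the least abundant of the 9 in both fractions. It was at 30.9 and 31.7 TPM in the WT early libraries, 33.1 and 30.03 in cKO early, 40.4 and 43.1 in WT late, and 41.2 and 46.6 in cKO late libraries. The fractions did not overlap, and Lbr rose by 0.43 (SE 0.075, adjusted p = 0.000986, higher in 4 of 4 lysates). Kdm1a stood at 3.93 ± 0.476 transcripts per Lbr transcript (SD, n = 4) in early and 5.29 ± 0.154 (SD, n = 4) in late libraries. These SDs span both genotypes. The ratio was 4.27 to 4.39 in WT early and 3.40 to 3.65 in cKO early libraries. It was 5.36 to 5.45 in WT late and 5.09 to 5.24 in cKO late libraries, and the genotypes were not tested for it.

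Within a single genotype fewer members passed. In WT, 6 of 9 passed against 54.8% of all genes, and in cKO 7 of 9 passed against 58.1%. Without WT early replicate 2 or WT late replicate 2, fewer members and fewer of all genes tested passed in WT. Ebf1 passed in neither genotype alone (-0.21, adjusted p = 0.121 in WT, and -0.25, adjusted p = 0.0685 in cKO). Ebf3 (0.22, adjusted p = 0.149) and Emx2 (-0.29, adjusted p = 0.0643) missed the threshold in WT and passed in cKO (Ebf3 0.48, adjusted p = 0.00792, and Emx2 -0.35, adjusted p = 0.0306). Ldb1 passed in WT (-0.31, adjusted p = 0.0236) and missed it in cKO (-0.14, adjusted p = 0.258). Ebf4 passed in both (0.29, adjusted p = 0.0217 in WT, and 0.33, adjusted p = 0.0112 in cKO), as did Lbr (0.40, adjusted p = 0.0123, and 0.46, adjusted p = 0.00616). None of these contrasts between genotypes passed as an interaction, described with the genotype results. With lysate as a replicate block, Ebf4 in WT (adjusted p = 0.0503) and Emx2 in cKO (adjusted p = 0.0636) missed the threshold. With TPM as deposited, Emx2 in cKO (-0.22, limma adjusted p = 0.110) and Ldb1 in WT (-0.21, adjusted p = 0.113) missed it. Both missed it with quantile normalization too (-0.23, adjusted p = 0.0984, and -0.23, adjusted p = 0.0807). There Ebf3 passed in WT (0.53, adjusted p = 0.00530), so passing in 1 genotype alone depended on the processing. Without WT early replicate 2, Ldb1 (-0.33, adjusted p = 0.0815), Ebf4 (0.25, adjusted p = 0.122) and Lbr (0.42, adjusted p = 0.0501) missed it in WT, while Lhx2 (-0.69, adjusted p = 0.0103), Ebf2 (0.82, adjusted p = 0.00807) and Kdm1a (0.73, adjusted p = 0.0112) passed.

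The order of the levels changed between the fractions. TPM is per length, so levels of different genes can be set side by side. In early polysomes Lhx2 led with 426 ± 45.5 TPM (SD, n = 4), with libraries that overlapped those of Ebf3 (362 ± 38.8). Ebf2 (266 ± 17.7) and Ebf1 (212 ± 14.7) followed, Ebf1 overlapping Emx2 (189.5 ± 13.6). Ldb1 (162 ± 7.95) and Kdm1a (123 ± 15.7) came next, Kdm1a overlapping Ebf4 (106 ± 7.29), and Lbr (31.4 ± 1.31) was last. In late polysomes Ebf3 (459.6 ± 29.8) and Ebf2 (451 ± 29.5) led and overlapped each other. Lhx2 (243 ± 18.5) and Kdm1a (226 ± 11.3) formed the next overlapping pair. Ebf1 (180.1 ± 6.77) stood apart from both neighbours, and Emx2 (152 ± 11.7), Ldb1 (139 ± 8.89) and Ebf4 (132 ± 6.94) overlapped in sequence above Lbr (42.8 ± 2.75). Kdm1a thus went from rank 7 to rank 4 and Lhx2 from rank 1 to rank 3.

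A longer coding sequence can carry more ribosomes, so each member was set beside genes of like coding length. The 14654 tested genes matched by symbol to a complete coding sequence were divided by coding length into 10 classes of equal size. The median change ran from -1.12 in the class of the shortest coding sequences to 0.50 in the class of the longest. Lhx2 (1221 nt, encoding 406 amino acids) lay at -0.80, below the lower quartile (-0.42) of its class, whose median was 0.01, and only 4.1% of that class was lower. Ldb1, of nearly equal coding length (1236 nt), lay inside the quartiles of that class.

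Ebf1 (1779 nt), Ebf2 (1728 nt), Ebf3 (1791 nt) and Lbr (1881 nt) belonged to a single class with a median of 0.28 and quartiles of -0.14 and 0.66. Ebf1 lay below the lower quartile (20.5% of the class was lower) and Ebf2 above the upper quartile (81.6% was lower), so paralogues of like length lay on opposite sides of it. Ebf3 (54.7% lower) and Lbr (60.4% lower) were near the middle. Kdm1a, the longest at 2622 nt, exceeded the upper quartile (0.74) of its class. Emx2, the shortest at 762 nt, fell in late polysomes but less than its class's median of -0.63, and Ebf4 (2091 nt) was close to its class's median of 0.37.

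**Figure D3:**
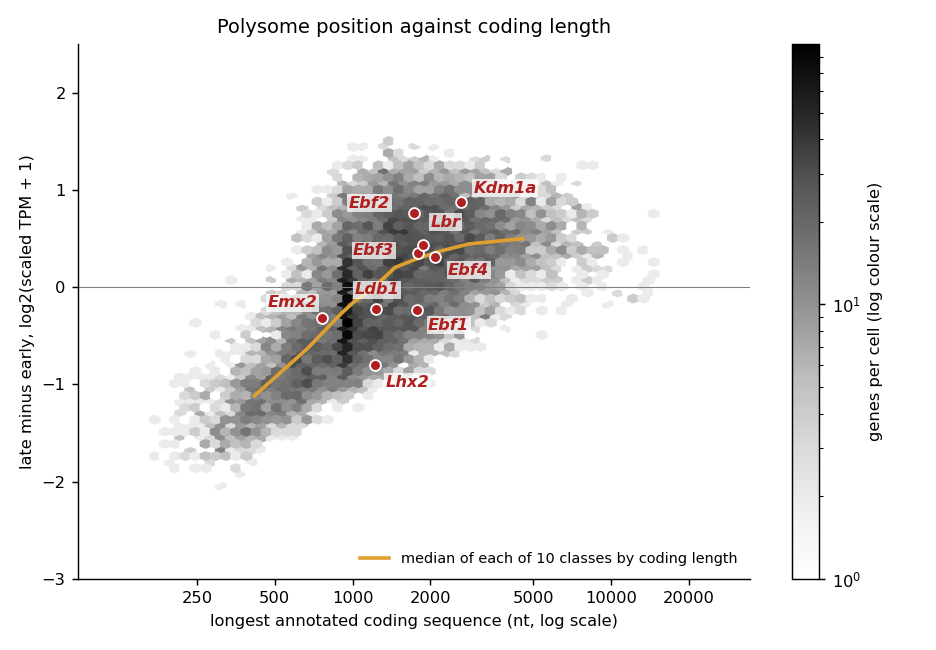
Late minus early change (vertical axis, log2 scale, mean of genotypes) against the longest annotated coding sequence (horizontal axis, nt, log scale) for 14654 genes in grey, with the 9 regulators in red and the median of each of the 10 length classes in orange. Lhx2 and Ebf1 lie below the line, and Ebf2 and Kdm1a above it.

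The leaders also differed among the members. Upstream ATG triplets in the annotated leader numbered 5 in Lhx2 (leader of 1015 nt), 3 in Emx2 (844 nt), 2 in Ebf1 (862 nt), 2 in Ebf2 (680 nt) and 2 in Ldb1 (356 nt). Ebf3, Ebf4, Kdm1a and Lbr held none, in leaders of 73 to 106 nt. All 4 members lower in late polysomes thus held an upstream ATG, as did 1 of the 5 that were higher (Ebf2). Across the annotation 50.6% of genes held one. The median change was -0.03 over the 7668 tested genes with an upstream ATG and 0.13 over the 6487 without. Leaders in use in this tissue were not measured, and with 9 genes the pattern is a description.

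Between genotypes no change was called in any of the 9 regulators. In such bulk tissue, fewer cells of a type and less RNA per cell cannot be told apart between genotypes. Early and late libraries of a number share a lysate, but each library mixes cell types. Their part in the shift between fractions was not tested. In early polysomes 0 of 9 passed against 0.0435% of all genes, in late polysomes 0 of 9 against 0.0124%, and on the mean of both fractions of each lysate 0 of 9 against 0.00621%. The interaction, which asks whether the shift between fractions differed with genotype, gave 0 of 9 against 0.00621%. At an unadjusted p under 0.05 limma gave 1 of 9 in early polysomes (Kdm1a) and 0 of 9 in the other 3 tests. Among the 16097 genes tested, 1071 had such a p in early and 1506 in late polysomes. There were 1823 on lysate means and 459 for the interaction, so 1 member at that level says little. Voom on inferred reads also gave 0 of 9 adjusted calls in each.

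Lhx2 was higher in both cKO libraries than in both WT libraries, in early and in late polysomes, with differences of 0.19 (95% interval -0.07 to 0.45, adjusted p = 0.825) and 0.18 (-0.08 to 0.44, adjusted p = 0.657). On lysate means the difference was 0.18 (SE 0.075, unadjusted p = 0.0501, adjusted p = 0.441). Kdm1a was lower in early polysomes of cKO by -0.28 (95% interval -0.54 to -0.03, unadjusted p = 0.0330, adjusted p = 0.725), and the difference in late polysomes was 0.00 (-0.25 to 0.26). Ebf3 had a like pair of values, -0.22 in early (-0.49 to 0.05) and 0.04 in late polysomes (-0.23 to 0.31). The early difference of Kdm1a ran from -0.40 to -0.16 leaving out 1 library at a time, and was -0.28 without WT early replicate 2. With no mean-variance trend in the fit, its unadjusted p by limma was not under 0.05. The interaction was 0.29 for Kdm1a (-0.07 to 0.64, unadjusted p = 0.102) and 0.26 for Ebf3 (-0.12 to 0.64, unadjusted p = 0.148), and neither passed (adjusted p = 1.00 for both).

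Ebf4 was lower in cKO in both fractions without overlap, at -0.16 in early (-0.36 to 0.04) and -0.11 in late polysomes (-0.31 to 0.09). Ldb1 was higher without overlap in late polysomes only (0.13, -0.10 to 0.35). Such separation of 2 libraries from 2 was frequent: 17.6% of genes were lower and 19.6% higher in every early cKO library, and 20.1% were lower and 20.5% higher in every late cKO library. For Ebf1, Ebf2, Emx2 and Lbr the libraries of both genotypes overlapped in both fractions. On lysate means the 95% intervals for these 4 genes ran no further than -0.25 and 0.22, so a change beyond those sizes was outside the intervals, and smaller ones could not be told from 0.

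**Figure D4:**
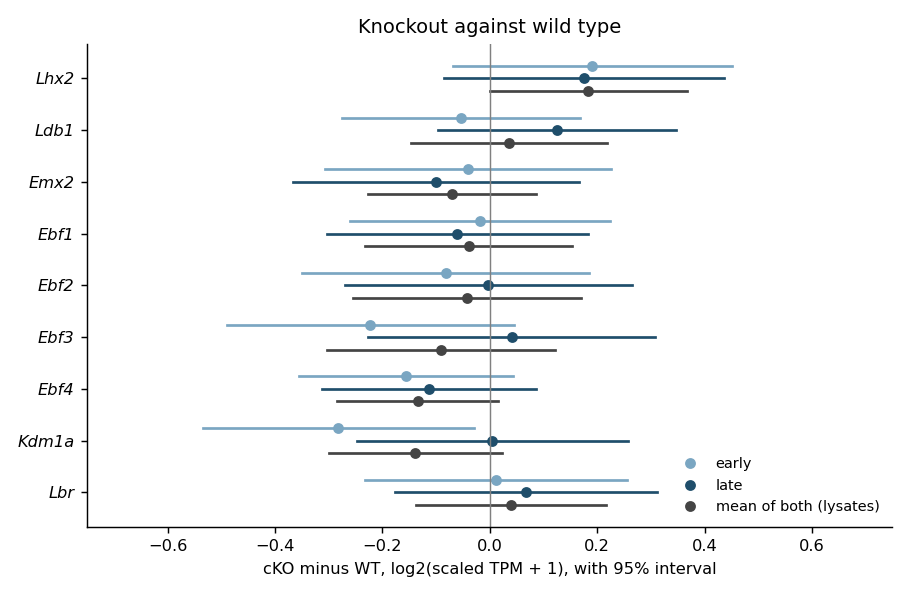
Difference cKO minus WT on log2(scaled TPM + 1) (horizontal axis) for each regulator in early polysomes, in late polysomes and on the mean of both per lysate; points are estimates and lines 95% intervals from limma. Among the intervals shown, that of Kdm1a in early polysomes alone excludes 0, and that of Lhx2 on lysate means ends at 0.

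The receptor genes that these factors act on summed over the 1193 Olfr symbols of the table to 2744 and 3250 TPM in the WT early libraries, 2806 and 3188 in cKO early, 2599 and 2611 in WT late, and 2283 and 2314 in cKO late libraries. The genotypes overlapped in early and not in late polysomes, a description with no test. Of all genes tested, 20.1% were lower in every late cKO library than in every late WT library, so such a separation was common.

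Genes that work with the regulators were described from lists. Each count is to be read against the 68.9% of all genes that passed in this comparison, 34.3% higher and 34.6% lower in late polysomes, with a median of -0.01, and against the coding length classes described above. Among 8 tested partners of the LIM-homeodomain complex, 1 rose, 4 fell and 3 did not pass, with a median of -0.35. That is 62.5% passing, near the share of all genes. The median after subtracting each gene's class median was 0.12, with 6 genes above their class median and 2 below. Lmo2 (71.1 TPM in early, 35.1 in late, adjusted p = 1.9e-05) and Lmo4 (-0.96, SE 0.065, adjusted p = 1.9e-05), LIM-only proteins that compete for Ldb1, fell. The Ldb1-binding Ssbp4 (-0.64, adjusted p = 0.000306) fell too. Changes given for single partners are not relative to their length classes. Rlim, the ubiquitin ligase that targets Ldb1, rose (0.84, adjusted p = 2.5e-05), from a mean of 52.1 TPM in early to 94.4 in late libraries. Of the 2 zinc-finger partners of Ebf proteins, Zfp423 rose (0.25, adjusted p = 0.0131) and Zfp521 did not pass.

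All 11 genes of the Kdm1a-CoREST complex passed, 8 higher and 3 lower, with a median of 0.43. After subtracting class medians the median was 0.065, with 6 genes above and 5 below. The deacetylase Hdac1 (0.98, adjusted p = 2.7e-05), Gse1 (0.97, adjusted p = 4.2e-05) and Zmym3 (0.93, adjusted p = 3.5e-05) rose, while Hmg20b (-0.46, adjusted p = 0.000514), Rcor3 (-0.35, adjusted p = 0.00822) and Phf21a (-0.20, adjusted p = 0.0384) fell. The call of Phf21a was lost in 8 of 16 alternatives, 6 of them leaving out a library, with adjusted p from 0.0246 to 0.300 over the 16. With TPM as deposited Rcor3 missed too (-0.24, adjusted p = 0.0548), and 1 gene of the complex was lower. Hdac1 went from 55.5 TPM in early to 110.4 in late libraries, and Kdm1a from 123 to 226.

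Of 20 heterochromatin factors 10 rose, 3 fell and 7 did not pass (median 0.20), and 65.0% passing is near the share of all genes. Relative to their classes the 18 with a matched coding length had a median of 0.14. The corepressor Trim28 rose most (1.37, SE 0.093, adjusted p = 1.9e-05), followed by the DNA methyltransferases Dnmt3a (0.89) and Dnmt1 (0.83). The heterochromatin proteins Cbx3 (-0.73) and Cbx1 (-0.69) and the methyltransferase Suv39h2 (-0.53) fell. Of 12 genes of the nuclear lamina, where Lbr resides, 7 rose, 2 fell and 3 did not pass (median 0.60, and 0.19 relative to their classes). The lamins Lmna (47.7 TPM in early, 136.0 in late), Lmnb1 (1.49) and Lmnb2 (1.25) rose, beside 0.43 for Lbr, and the DNA-bridging Banf1 (-1.45) and the envelope protein emerin, Emd (-0.71), fell.

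All 9 tested genes of Ctcf and cohesin, which fold chromosomes, rose (median 0.51), among them Smc3 (0.73), Ctcf (0.58) and Smc1a (0.54). These are long genes (median coding length 3777 nt), and relative to their classes the median was 0.035, with 6 above and 3 below. Of 8 genes of receptor feedback and signalling, 5 rose and 3 fell (median 0.47, and 0.15 relative to their classes). Adcy3, the adenylyl cyclase whose expression ends the Kdm1a phase, rose by 1.58 (SE 0.12, adjusted p = 2.2e-05), from 156 to 464 TPM, and the receptor chaperone Rtp1 (0.48) and the G protein subunit Gnal (0.48) rose less. The stress-response factors Ddit3 (-1.12, adjusted p = 3.1e-05) and Atf5 (-0.93, adjusted p = 0.000211), the latter part of the feedback that the receptor protein triggers, fell, as did Gnas (-0.31, adjusted p = 0.00233; with quantile normalization -0.14, adjusted p = 0.0876). In none of the lists did a gene pass in a genotype comparison.

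**Figure D5:**
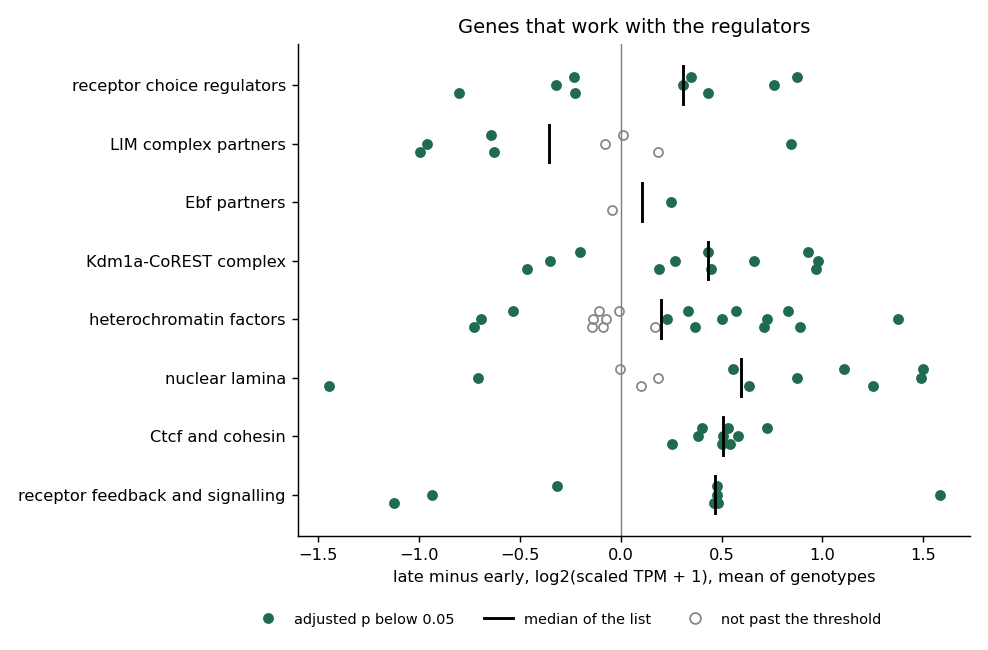
Late minus early change (horizontal axis, log2 scale, mean of genotypes) of the 9 regulators and of the genes in 7 lists of partners; points are genes, filled where the adjusted p is below 0.05, and bars are list medians. All 9 genes of Ctcf and cohesin lie above 0, whereas the regulators and the LIM complex partners lie on both sides.

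The genes whose pattern over the 8 libraries was most like each member were found by Pearson correlation among 12814 genes with a mean of at least 5 TPM. The 8 libraries share 4 lysates and fall into 2 fractions, so high values mostly describe the split by fraction. Closest to Lhx2 were Efhd2 (r = 0.998) and Slc30a4 (r = 0.998), to Ebf2 Tle3 (r = 0.998) and Tchp (r = 0.997), to Kdm1a Idh1 (r = 0.998) and Eif2s1 (r = 0.998), and to Lbr Brox (r = 0.999) and Arhgap1 (r = 0.998). Ebf4 was closest to Atp8a2 (r = 0.997) and Gabbr1 (r = 0.996), and Ebf1 to Tmem229b (r = 0.996) and BC100530 (r = 0.989). Ebf3 was closest to Prpsap2 (r = 0.989) and Zbtb5 (r = 0.987), Emx2 to Zmynd11 (r = 0.989) and Cnih4 (r = 0.988), and Ldb1 to N4bp1 (r = 0.979) and Slc35a5 (r = 0.967). Genes with r of at least 0.95 numbered 1856 for Kdm1a, 1581 for Lhx2, 1359 for Lbr and 1207 for Ebf2, and 512 for Ebf4, 202 for Emx2, 79 for Ebf1, 55 for Ebf3 and 24 for Ldb1.

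Some members share their locus with a gene on the other strand. The kit marks strand, but whether counting used it is not given in the sources used here, so reads of such pairs may be mixed. Emx2os, antisense to Emx2, was at 3.9% to 7.8% of the Emx2 level across libraries. Deposited values were 7.95 to 22.0 TPM for Pprc1 beside Ldb1, 27.5 to 41.5 for Luzp1 beside Kdm1a, 2.57 to 9.17 for Gm6878 beside Ebf2, and 1.43 to 2.93 for Gm10578 beside Ebf3. Counting error covers only the reads, and the errors given above are the spread between libraries.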

How the data were processed

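The authors deposited 1 table of TPM per gene symbol and library, each column summing to 1000000. Per the submitters' processing notes, FastQC, cutadapt, STAR, DESeq2 and the build mm10 were used, with no roles or versions; the counting method and annotation are not given in the sources used here. All 8 sample columns were used. The Cre line is not reported here. Groups and replicate numbers came from sample titles.

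Libraries were brought to a shared scale with median ratios of TPM. The test was limma 3.58.1 (R 4.3.3) on log2(scaled TPM + 1), for 16097 genes whose mean deposited TPM was 1 or more. The pseudocount of 1 understates changes of low genes. One fit held the 4 groups, moderated by empirical Bayes along a mean-variance trend; tests were two-sided, Benjamini-Hochberg adjusted over all genes tested, with a threshold of 0.05. A second genotype test used the mean of both fractions per lysate. TPM states no depth: whole reads were inferred from the steps of TPM (100% of 19783 genes above 0 in at least 2 libraries, tolerance 0.001) and served an added voom test.

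Members and gene lists were chosen with earlier results of these data known. Named genes were Mex3a, the 9 members, up to 3 rising and 3 falling genes per list with the largest change among those past the threshold and without overlap between fractions, and the 2 genes most correlated with each member. Zfp521 and the marker genes that carried a sum were named after their values were seen. Marker lists covered mature and immature neurons, progenitors, horizontal basal, sustentacular, microvillous, respiratory ciliated, gland, forebrain, stroma and endothelial, blood and immune, and ensheathing glial cells. Alternatives were another pseudocount (0.1), filter (none, or a mean TPM of at least 5), scaling (TPM as deposited, quantile) or variance model, each library left out, only the groups compared, and replicate blocks. Early and late libraries of a number share a lysate name, which pairs them; deviations from group means correlated at 0.0863 in WT and 0.0502 in cKO. Coding sequences and positions are from GENCODE vM21 on GRCm38, the longest complete coding sequence per gene, which may not be the authors' annotation. Figures were drawn with matplotlib 3.10.9.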

Additional observations from a re-analysis of the deposited data

Results flagged for a closer look

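In the early libraries of Ebf2, WT early replicate 2 stood apart at 292 TPM, against 255, 256 and 260 TPM in the other 3. Its gap to the nearest library was 0.871 of the range of the 4, above Dixon's 95% critical value. The check was run on 47 groups of 4 libraries or lysates (levels, late minus early changes, and sums and ratios of the members), it passed in this 1, and chance passes about 1 in 20. Without that library Ebf2 remained higher in late polysomes by 0.81 on the log2 scale (SE 0.091, adjusted p = 0.000397 by limma), against 0.76 with it.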

How the results depend on the processing

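In late against early polysomes averaged over genotypes, Lhx2, Ebf2, Ebf3, Ebf4, Emx2, Kdm1a and Lbr kept their direction and their side of the threshold in all 16 alternatives, and Ldb1 and Ebf1 kept their direction but missed the threshold in 4 and 7 of them. Of the 144 values for the 9 members in that comparison, 133 stayed on the same side and 11 lost the call. TPM as deposited moved the median of all genes in this comparison from -0.01 to 0.09, and quantile normalization to 0.05. In the genotype comparisons no member passed under any alternative, and signs changed where differences were near 0; the cause was not tested. With TPM as deposited the sign changed for Lbr in early polysomes (-0.044), Kdm1a in late polysomes (-0.033), the interaction of Lhx2 (0.00328), and Ldb1 (-0.012) and Lbr (-0.00697) on lysate means. With quantile normalization it changed for Ebf3 (-0.00558) and Kdm1a (-0.013) in late polysomes and for the interaction of Lhx2 (0.041).

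Of 495 values for the 31 other genes named by symbol from the lists, 485 stayed on the same side, 10 lost the call (Phf21a 8, Rcor3 1, Gnas 1) and none changed sign.

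Leaving out 1 library at a time (a lone library is assumed to vary like the other groups), differences in early polysomes ran from -0.13 to 0.025 for Ldb1, -0.12 to 0.079 for Ebf1, -0.18 to 0.015 for Ebf2, -0.14 to 0.059 for Emx2 and -0.057 to 0.079 for Lbr. In late polysomes they ran from -0.10 to 0.097 for Ebf2, -0.065 to 0.15 for Ebf3, -0.062 to 0.072 for Kdm1a and -0.019 to 0.15 for Lbr. The interaction ran from -0.12 to 0.090 for Lhx2, -0.14 to 0.055 for Ebf1, -0.021 to 0.18 for Ebf2, -0.0018 to 0.087 for Ebf4, -0.16 to 0.038 for Emx2 and -0.030 to 0.14 for Lbr. Leaving out 1 lysate gave -0.034 to 0.11 for Ldb1, -0.10 to 0.022 for Ebf1 and -0.12 to 0.035 for Ebf2.

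Counts over all genes called between genotypes were few and moved. The 7 calls in early polysomes became 11 with no filter, 4 at a mean TPM of at least 5, 0 with only the groups compared, 20 with voom (added after seeing the data) and 0 to 9 leaving out 1 library. The 2 calls in late polysomes became 1 with a pseudocount of 0.1, with only the groups compared and at a mean TPM of at least 5, 4 with no filter, 5 with no trend, 15 with voom and 0 to 13 leaving out 1 library. The 1 interaction became 0 at a mean TPM of at least 5 and with voom, 6 with no filter, 2 with no trend and 1 to 7 leaving out 1 library. The 1 call on lysate means became 0 with no filter or no trend, 23 with voom and 1 to 10 leaving out 1 lysate. Fitting only the groups compared ended the early call of Mex3a (-2.55, adjusted p = 0.0843). Late against early in WT gave 5874 to 8968 calls leaving out 1 library, lowest without WT early replicate 2, and 3 to 6 of 9 members passed there, 3 without WT early replicate 2 and without WT late replicate 2.

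With lysate as a replicate block, late against early gave 11004 calls on average (11094 without the block), 8660 in WT and 9245 in cKO, and it ended the calls of Ebf4 in WT and Emx2 in cKO only. The block by replicate number gave 7 calls in early polysomes, 2 in late and 85 on lysate means, none of them a member; WT and cKO libraries of a number share only the number, and their deviations correlated at 0.332 in early and 0.143 in late polysomes. Depth limits Lbr most, with 440 reads in its lowest library.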
